A study of Mus musculus with 6 samples.

Results

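Vascular smooth muscle nuclei were examined in single-nucleus RNA sequencing libraries of the left ventricle of mice. They were chosen by their own transcripts, counted as unique molecular identifiers (UMI). A nucleus was kept for the study with at least 500 UMI, at least 300 genes and at most 5% of its UMI from mitochondrial genes. It was called a smooth muscle nucleus when Myh11, Acta2 and Tagln together had at least 3 UMI, of which at least 2 were Myh11. It also had to hold at most 1 UMI of Pdgfra, Pecam1 and Cdh5 (fibroblast and endothelial genes) and under 1% of its UMI from the cardiomyocyte genes Ttn, Ryr2 and Myh6. This left 244 of 48438 kept nuclei (0.504%) out of 69249 deposited barcodes.

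The 6 libraries came from male mice aged 12 weeks, 2 libraries in each of 3 groups. WT-CD mice were wild-type littermates fed a control diet. In the R403Q-CD group mice had the R403Q substitution in cardiac myosin heavy chain, a model of hypertrophic cardiomyopathy whose genotype is labelled Myh6+/R404Q (R403Q), and ate the same diet. R403Q-EMPA mice had that genotype and ate the diet with empagliflozin (EMPA, an inhibitor of the sodium-glucose cotransporter SGLT2) at 0.15 mg per g, about 15 mg per kg body weight. Feeding started at an age of 9 to 10 weeks, and by the study's design hearts for RNA sequencing were taken 2 weeks into treatment, which fits the age of 12 weeks. The labels of these libraries also name 16 weeks of feeding, so 2 weeks is an assumption here. No wild-type mice on EMPA were included. The myosin gene that carries the substitution is a cardiomyocyte gene. The labels do not say whether each library came from 1 mouse, so the p-values below measure the spread between libraries, which may be technical.

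Vascular smooth muscle cells form the contractile coat of arteries and arterioles. Calcium entering through voltage-gated channels activates myosin light chain kinase, the phosphorylated light chain lets smooth muscle myosin pull on actin, and nitric oxide and cyclic GMP reverse this through protein kinase G. Pericytes are their neighbours on capillaries and share much of this machinery, so they are the natural set to compare with. A pericyte nucleus was defined here by at least 3 UMI of Abcc9, Kcnj8 and Rgs5 including at least 2 of Abcc9, outside the smooth muscle set and under the same limits on other cell types.

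The smooth muscle nuclei numbered 51 and 50 in the WT-CD libraries, 34 and 37 for R403Q-CD, and 44 and 28 in R403Q-EMPA. These were 0.501% and 0.623% of kept nuclei in WT-CD, 0.428% and 0.507% for R403Q-CD, and 0.534% and 0.415% with EMPA. The groups overlapped, and every library's exact 95% binomial interval, which covers counting error only, spanned the pooled share of 0.504%. The WT-CD mean was 0.562% ± 0.0859 (SD, n = 2), the R403Q-CD mean 0.467% ± 0.0553 and the R403Q-EMPA mean 0.474% ± 0.0843. R403Q-CD minus WT-CD was -0.0948 percentage points (exact permutation p = 0.667), R403Q-EMPA minus R403Q-CD 0.00679 points (exact permutation p = 1) and R403Q-EMPA minus WT-CD -0.0880 points (exact permutation p = 0.667), all two-sided. With 2 libraries per group, 0.3333 is the smallest p this test can give. Without nuclei holding 2 or more UMI of the pericyte genes Abcc9 and Kcnj8, a subset chosen after seeing the data, the means were 0.382% ± 0.0296 in WT-CD, 0.295% ± 0.0105 for R403Q-CD and 0.378% ± 0.0318 with EMPA. Both R403Q-CD libraries then lay below the other 4, with differences of -0.0873 points from WT-CD and 0.0830 points for EMPA minus R403Q-CD (exact permutation p = 0.3333 for each). Pericyte nuclei, 4837 in all, averaged 12.7% of kept WT-CD nuclei, 10.2% with R403Q-CD and 6.59% with EMPA (exact permutation p = 0.3333 for each pair).

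**Figure D1:**
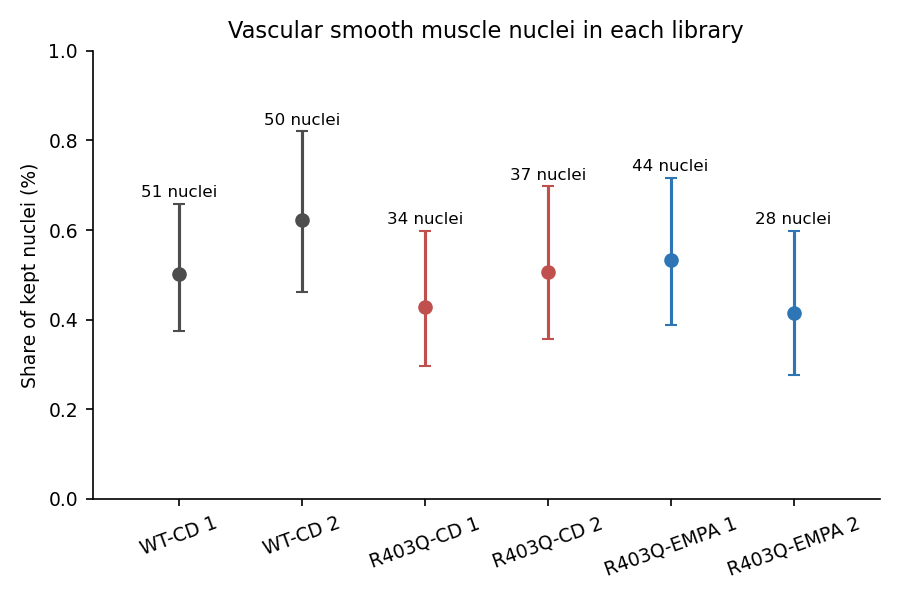
Share of kept nuclei called smooth muscle (y axis, percent) in each of the 6 libraries (x axis), with the number of nuclei and exact 95% binomial intervals. The shares lie between 0.415% and 0.623%, and the intervals of all 6 libraries overlap.

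The smooth muscle nuclei held 834925 UMI together, from 75395 in R403Q-EMPA replicate 2 to 200497 in WT-CD replicate 2. Their median was 3196.5 UMI, against 2697 in pericyte nuclei. A doublet caller marked 6 of the 244 (2.46%), against 5.02% of kept nuclei. Of all barcodes, 538 occurred in 2 or more libraries. These included 5 smooth muscle barcodes, and 0 of them was a smooth muscle nucleus in more than 1 library. The 2 libraries of each group differed beyond counting noise in these nuclei (chi-square per degree of freedom 2.40, 1.63 and 1.74), so none was merged.

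The name was checked with markers that the rule did not use. Levels are given as CPM, the UMI of a gene summed over a set of nuclei in a library and scaled to the set's total UMI. Of 11 further smooth muscle markers, 8 could be compared with pericyte nuclei, and 8 of 8 were higher in all 6 libraries. The sum of these markers was 4017 to 6230 CPM in smooth muscle nuclei and 833 to 1095 CPM in pericyte nuclei. Marker lists of other cell types were summed over the same nuclei and over all remaining nuclei. The rule limits endothelial, fibroblast and cardiomyocyte transcripts, so low sums of these 3 lists follow in part from it and check nothing. With the genes of the rule left out they were 172 to 773 CPM, 849 to 1714 CPM and 878 to 2001 CPM, against 2385.5 to 3771 CPM, 3106 to 7682 CPM and 3910 to 7274 CPM in the remaining nuclei. Myeloid markers, which the rule did not use, summed to 119 to 263 CPM against 702 to 1387.5 CPM. Lymphoid markers summed to 61.0 to 109 CPM against 295 to 456 CPM, and 4 of 12 had a UMI. Adipocyte markers summed to 531 to 949.7 CPM against 1333 to 1751 CPM, with 6 of 12 detected and Plin1, Adipoq and Cidec at 0. Schwann cell markers overlapped, at 199 to 959 CPM against 401 to 808 CPM, with 9 of 12 detected and Sox10 at 0. The highest Schwann sum, 959 CPM in R403Q-CD replicate 2, exceeded the 661 CPM of the remaining nuclei of that library. This list was also at 1431 to 1941.5 CPM in pericyte nuclei.

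Pericyte genes were not absent. Abcc9 and Kcnj8 encode the subunits of the ATP-sensitive potassium channel of pericytes, and 72 of the 244 nuclei (29.5%) held at least 2 UMI of the pair. These nuclei numbered 10 and 21 in the WT-CD libraries, 10 and 16 for R403Q-CD, and 11 and 4 with EMPA. With Rgs5 counted as well, 132 of the 244 nuclei (54.1%) held at least 2 UMI. The 12 pericyte markers summed to 3406 and 4983 CPM in WT-CD, 4104 and 5816 CPM for R403Q-CD, and 2965 and 2944 CPM in R403Q-EMPA, the lowest pair, against 11717 to 14095 CPM in pericyte nuclei. The list includes Abcc9, Kcnj8 and Rgs5, which chose the pericyte nuclei, so the high sum there follows in part from that choice. Without the 72 nuclei, left out for their Abcc9 and Kcnj8 UMI, the sum was 1614 to 2687 CPM, a fall that follows in part from leaving them out. The R403Q-EMPA libraries at 2146 and 2402 CPM were then no longer the lowest. The Schwann marker sum without them was 166 to 390 CPM.

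Abcc9 and Kcnj8 sat mainly at the edge of the rule, while Rgs5 and Pdgfrb fell less across it. In the 56 nuclei with 3 or 4 UMI of Myh11, Acta2 and Tagln, Abcc9 stood at 3558 CPM, close to the 4212 CPM in 96 nuclei that missed the rule by 1 UMI. In the same 56 nuclei Lmod1 (leiomodin, an actin nucleator of smooth muscle) was at 119 CPM and Cnn1 (calponin) had 0 UMI. The 38 nuclei with 5 to 9 marker UMI lay between, with Abcc9 at 916 CPM and Lmod1 at 472 CPM. In the 150 nuclei with 10 or more, Abcc9 was at 201 CPM, Lmod1 at 842 CPM, Cnn1 at 84.2 CPM and Ntrk3, a neurotrophin receptor, at 367 CPM. From the 56 to the 150 nuclei Rgs5 went from 1586 to 632 CPM, Pdgfrb from 1538 to 537 CPM and Kcnj8 from 339 to 16.1 CPM. The set therefore runs from nuclei rich in contractile transcripts to nuclei whose pericyte transcripts are near those of pericyte nuclei, and the name holds best for the former. These values describe the rule and were not tested.

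**Figure D2:**
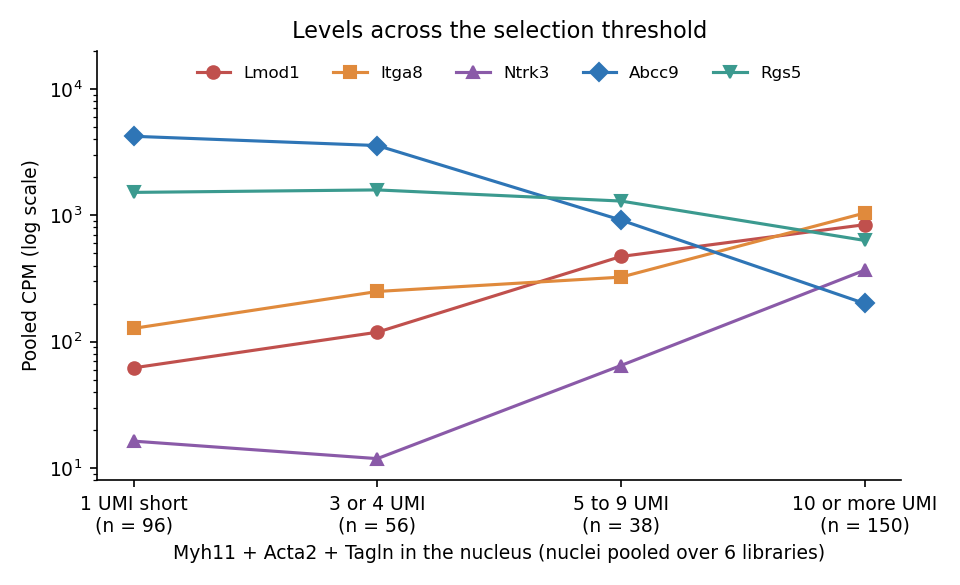
Pooled CPM (y axis, log scale) of 3 smooth muscle genes and 2 pericyte genes in nuclei grouped by their UMI of Myh11, Acta2 and Tagln (x axis), from 1 UMI short of the rule to 10 or more. Abcc9 goes from 4212 to 201 CPM while Lmod1 goes from 62.1 to 842 CPM.

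Compared with pericyte nuclei, the contractile apparatus set these nuclei apart. Levels beside other nuclei follow from the selection and are a description with no test. Among 12004 genes with at least 50 UMI in either set, 691 (5.76%) were higher in smooth muscle nuclei in all 6 libraries and 1621 (13.5%) were lower in all 6. The pericyte sums held 1226352 to 3186973 UMI per library, against 75395 to 200497 for smooth muscle nuclei. A low gene can therefore be at 0 in the smaller sums and count as lower, so these counts cannot be set against each other. Of the contractile list without the 3 rule genes, 24 of the 24 genes compared were higher in all 6 libraries, with a median ratio of 3.63. Lmod1 averaged 623 CPM against 4.45 CPM in pericyte nuclei, a 140-fold ratio, and ranged from 410 to 793 CPM over the libraries. Myl9, the regulatory myosin light chain, was 24.7-fold higher at 251 CPM against 10.2 CPM. Mylk, the kinase that phosphorylates that light chain, was 2.85-fold higher at 1268 CPM against 445 CPM. The genes of the list with the most UMI outside the rule, Cald1 (caldesmon), Tpm1 (tropomyosin) and Ppp1r12a (the myosin phosphatase targeting subunit), were 1.73-fold, 3.21-fold and 3.69-fold higher. Cnn1 had 47 UMI in smooth muscle nuclei and averaged 58.8 CPM against 0.122 CPM, and Actg2 (enteric smooth muscle actin) 53.3 CPM against 0.0531 CPM. The rule genes averaged 4262 CPM for Myh11, 1549 CPM for Acta2 and 519 CPM for Tagln.

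Serum response factor with myocardin drives much of this programme through a short element, the CArG box, in which a stretch of A and T bases lies between CC and GG. Myocd, the gene of myocardin, averaged 420 CPM in smooth muscle nuclei and 10.1 CPM in pericyte nuclei, 41.5-fold higher, while all other nuclei, cardiomyocytes included, were at 448 CPM. The exact box, which reads as the same pattern on both strands, was searched in the RefSeq windows from 250 bases before to 50 after each transcript start (build GRCm38.p6, not the GRCm39 of the deposited counts). It was found in 3 of the 25 contractile genes with a window (12%) and in 488 of 27025 genes overall (1.81%). The windows that hold it are shown here, with the box in capitals, and were picked for the match. Their 3 genes were higher than in pericyte nuclei in all 6 libraries. So were all 24 contractile genes compared, so this says nothing of the box. Myl9 (chr2:156775214-156775513, plus strand) has it at base -161 from the start, Myl6 (essential light chain, chr10:128492960-128493259, minus strand) at -50, and Vcl (vinculin, chr14:20929148-20929447, plus strand) at -227.
Myl9: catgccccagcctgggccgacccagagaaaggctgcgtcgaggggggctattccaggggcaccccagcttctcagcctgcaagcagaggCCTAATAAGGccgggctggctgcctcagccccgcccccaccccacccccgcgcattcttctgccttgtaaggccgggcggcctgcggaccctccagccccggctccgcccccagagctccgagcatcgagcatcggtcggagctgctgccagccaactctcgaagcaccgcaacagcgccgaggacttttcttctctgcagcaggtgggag
Myl6: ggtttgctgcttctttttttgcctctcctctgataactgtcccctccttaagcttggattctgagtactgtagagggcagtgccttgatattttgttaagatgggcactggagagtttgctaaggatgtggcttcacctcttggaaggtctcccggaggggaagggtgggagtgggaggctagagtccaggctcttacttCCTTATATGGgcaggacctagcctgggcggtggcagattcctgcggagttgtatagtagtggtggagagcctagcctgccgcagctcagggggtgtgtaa
Vcl: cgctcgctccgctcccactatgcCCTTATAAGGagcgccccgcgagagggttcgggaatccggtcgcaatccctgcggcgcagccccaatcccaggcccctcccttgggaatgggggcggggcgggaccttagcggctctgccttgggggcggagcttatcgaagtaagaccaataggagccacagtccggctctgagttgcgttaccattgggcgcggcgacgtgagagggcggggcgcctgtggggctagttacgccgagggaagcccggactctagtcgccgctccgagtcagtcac
Myl6 was 3.57-fold higher than in pericyte nuclei at 404 CPM and Vcl 1.39-fold higher at 613 CPM. The Acta2 window held no exact box, though ccctatatgg and ccttgtttgg in it each differ from the pattern by a single base. Myh11 and Tagln had no window and were not searched. A match or its absence in these letters says nothing of binding.

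Ion channels split in both directions. Of 29 channel genes compared, 15 were higher than in pericyte nuclei in all 6 libraries and 5 lower. Kcnab1, a beta subunit of voltage-gated potassium channels, was at 3461 CPM against 17.4 CPM, a 199-fold ratio. It ranged from 2940 to 4218 CPM over the libraries. Kcnma1, the pore of the large-conductance calcium-activated potassium channel that limits vascular tone, was 228-fold higher at 484 CPM against 2.12 CPM. Cacna1c and Cacnb2, the pore and beta subunit of the L-type calcium channel, were 1.45-fold and 3.59-fold higher. Slc8a1, the sodium-calcium exchanger, was 3.45-fold higher. Abcc9 and Kcnj8, which define the pericyte set here, were lower in all 6 libraries, at 894 against 5075 CPM and 89.3 against 538 CPM. Slc5a2, the gene of the SGLT2 target, and Slc5a1 had 0 UMI, where 3 UMI over all smooth muscle nuclei would be 3.59 CPM.

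The median log2 ratio to pericyte nuclei was 0.60 for the ion channels, -1.11 for vasoconstrictor receptors and -0.22 for relaxation genes, against -0.14 for all 12004 genes. Of 14 vasoconstrictor receptors compared, 1 was higher in all 6 libraries and 4 were lower. The 1 was Npy1r, the neuropeptide Y receptor of sympathetic vasoconstriction, at 63.1 CPM against 1.41 CPM. Ednra, the endothelin receptor, was at 537 against 632 CPM and was higher in 1 of 6 libraries. Of 30 relaxation genes, 3 were higher in all 6 and 7 lower. Prkg1, protein kinase G, was at 9136 CPM against 8421 CPM, higher in 5 of 6 libraries. Pde3a, which degrades cyclic AMP, was 2.12-fold higher in all 6. Gucy1a2, a soluble guanylate cyclase subunit, was lower in all 6 at 1254 against 1905 CPM. Of the matrix list, 11 of 46 were higher in all 6 and 20 lower, among them Lama2 at 714 against 2515 CPM. Col18a1, the collagen of basement membranes from which endostatin is cut, was higher in all 6 libraries at 155 against 2.18 CPM.

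**Figure D3:**
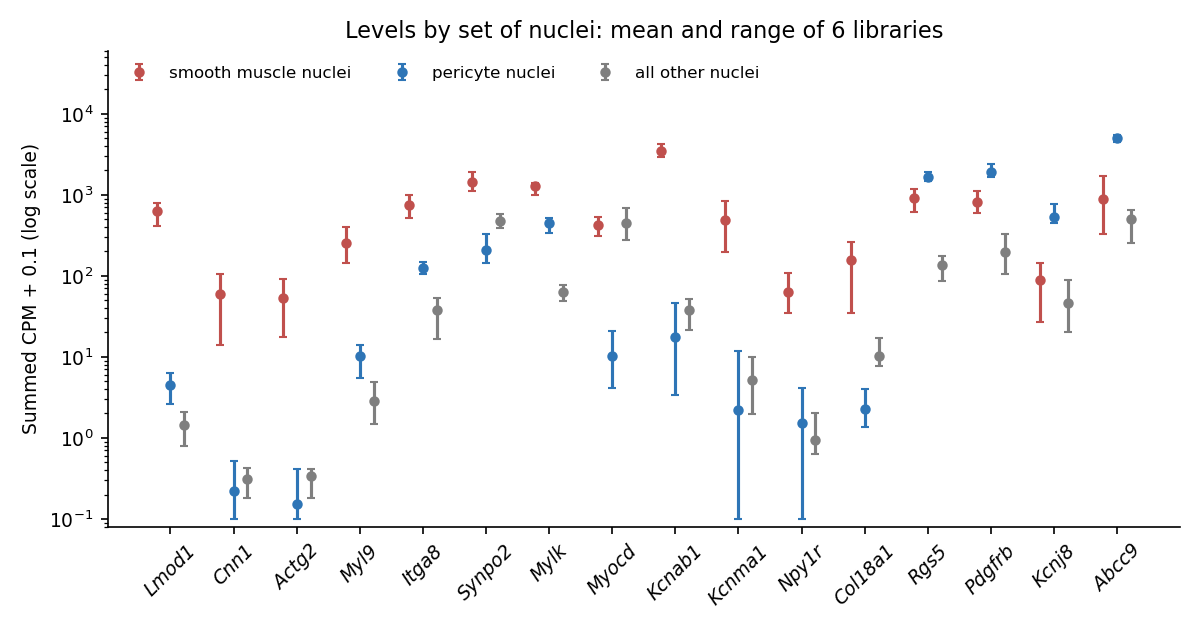
Mean CPM plus 0.1 over 6 libraries (y axis, log scale, bars from the lowest to the highest library) of 16 genes (x axis) in smooth muscle, pericyte and all other nuclei. Lmod1 to Col18a1 are higher in smooth muscle than in pericyte nuclei, and Rgs5, Pdgfrb, Kcnj8 and Abcc9 are lower.

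The genes with the highest ratio to pericyte nuclei were mostly outside the lists. Grip2, a scaffold protein gene, had 130 UMI in smooth muscle nuclei and 1 in pericyte nuclei. Map3k7cl and Susd5 had 127 and 99 UMI against 0 in the pericyte nuclei, at least 705-fold and 556-fold higher against a floor of 3 UMI over all pericyte nuclei. Or51e2, an olfactory-type receptor, had 197 UMI against 7 and was 522-fold higher. Slc22a3, an organic cation transporter, was 286-fold higher, Npnt, a matrix ligand of the integrin chain encoded by Itga8, 262-fold and Cdh6, a cadherin, 237-fold. Itga8 itself was 5.90-fold higher at 745 against 126 CPM. At the other end Cntn4 had 3 UMI against 1307, and Itga6, an integrin chain of laminin receptors, was 11.2-fold lower with 6 UMI against 1120.

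The nuclei varied among themselves. After thinning 239 of them to 1500 UMI each, 5 shallower nuclei being left out, the ratio of variance to mean had a median of 1.29 over 1470 genes. It was highest, at 33.3, for Thsd7a, which had thinned UMI in 5.44% of the nuclei and 51 of them in 1 nucleus. It was 27.6 for Malat1, 7.99 for Pcdh7, 7.77 for Sorbs2 and 7.10 for Abcc9. Clustering gave 5 clusters of 71, 53, 51, 45 and 24 nuclei, described here by leading genes and not named. Cluster 3, led by Mdga2 and Abcc9, held 46 of the 72 nuclei with Abcc9 and Kcnj8 UMI, and 7 of its 51 nuclei had 10 or more marker UMI. Cluster 5, led by Pcdh7 and Ptgis (prostacyclin synthase), had 23 of 24 such nuclei, 31 of the 47 Cnn1 UMI and 80 of the 131 Col18a1 UMI, and no Rgs5 UMI. Ryr2, which the rule limits as a cardiomyocyte gene, had UMI in all nuclei of cluster 5. It was at 1536 CPM there against 251 CPM in the other smooth muscle nuclei. Cluster 1 was led by Or7e176, Ppm1l and Fat3, cluster 2 by Thsd7a and Tmeff2, and cluster 4 by Crispld2, Pde10a and Angpt1.

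The 3 comparisons ask whether the mutation, EMPA on top of it, or both together changed smooth muscle transcripts. UMI were summed per library and 3381 genes were tested with edgeR's quasi-likelihood test, calling a gene at a Benjamini-Hochberg adjusted p under 0.05. For R403Q-CD against WT-CD, 0 genes were called (0.0%). At an unadjusted p under 0.05 there were 164 (4.85%), and DESeq2 called 0. For R403Q-EMPA against R403Q-CD, edgeR called 11 (0.325%), of which 5 were higher with EMPA and 6 lower, and 290 had an unadjusted p under 0.05 (8.58%). For R403Q-EMPA against WT-CD, 8 were called (0.237%), 7 higher and 1 lower, and 234 had an unadjusted p under 0.05 (6.92%). DESeq2 called 1 gene in each of these comparisons. The median standard error of a log2 fold change was 0.439, 0.465 and 0.451, which is the precision that 28 to 51 nuclei per library gave.

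Pde10a, a phosphodiesterase of cyclic AMP and cyclic GMP, was called in both EMPA comparisons by edgeR and by DESeq2. It had 8 and 10 UMI in the WT-CD libraries, 5 and 14 for R403Q-CD, and 139 and 27 in R403Q-EMPA, or 58.3 and 49.9, 43.6 and 97.3, and 851 and 358 CPM. Both EMPA libraries lay above all others, and the UMI came from 19 and 9 nuclei, with at most 34 in a single nucleus. The log2 fold change was 3.13 ± 0.45 (SE) against R403Q-CD (edgeR adjusted p = 0.000875) and 3.54 ± 0.45 against WT-CD (adjusted p = 0.000284). Leaving out, in each library, the nucleus with the most Pde10a UMI gave 3.18 and 3.73 (adjusted p = 0.00673 and 0.00219). Without the 72 nuclei with Abcc9 and Kcnj8 UMI the values were 2.26 (adjusted p = 0.239) and 2.98 (adjusted p = 0.0174). In pericyte nuclei Pde10a rose by 2.25 against WT-CD (adjusted p = 0.00673), and its change against R403Q-CD was 1.44 (adjusted p = 0.132).

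Zfp804b, a zinc finger gene, was lower with EMPA. It had 22 and 101 UMI in WT-CD, 75 and 107 for R403Q-CD, and 0 and 4 in R403Q-EMPA. Both EMPA libraries were below the others. The log2 fold change was -5.22 ± 0.70 against R403Q-CD (edgeR adjusted p = 0.00052) and -4.21 ± 0.73 against WT-CD (adjusted p = 0.0146). These UMI were concentrated, with 217 of 309 in cluster 3 and 84.1% in nuclei with Abcc9 and Kcnj8 UMI. Of the 51 nuclei of cluster 3, 9 and 16 lay in the WT-CD libraries, 7 and 14 in R403Q-CD and 3 and 2 with EMPA, fewest in both EMPA libraries. That clustering used these genes, so the numbers are no result of their own, and their part in the change was not tested. Without the nuclei with Abcc9 and Kcnj8 UMI the values were -2.79 (adjusted p = 0.95) and -3.39 (adjusted p = 0.527).

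Col18a1 was the gene with the smallest p in R403Q-CD against WT-CD and was called in R403Q-EMPA against R403Q-CD. It stood at 197 and 170 CPM in WT-CD, 52.3 and 34.8 CPM for R403Q-CD, and 263 and 212 CPM in R403Q-EMPA. Both R403Q-CD libraries lay below the other 4, with 6 and 5 UMI against 16 to 43. The log2 fold change was -2.10 ± 0.46 in R403Q-CD against WT-CD (edgeR adjusted p = 0.495), 2.52 ± 0.46 with EMPA against R403Q-CD (adjusted p = 0.0181) and 0.41 ± 0.36 with EMPA against WT-CD (adjusted p = 0.928). The comparisons share the R403Q-CD libraries. Leaving out the nucleus with the most Col18a1 UMI in each library gave 2.26 with EMPA (adjusted p = 0.205), and 20 of the 43 UMI of R403Q-EMPA replicate 1 were in 1 nucleus. Cluster 5 gave 80 of the 131 Col18a1 UMI, and of its 24 nuclei 6 and 6 lay in the WT-CD libraries, 3 and 1 in R403Q-CD and 7 and 1 with EMPA. The clustering used these genes, so the numbers are no result of their own, and their part in the Col18a1 change was not tested.

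Cnnm2, a gene of cellular magnesium handling, was also higher with EMPA against R403Q-CD. It was at 292 and 229 CPM in WT-CD, 139 and 174 CPM for R403Q-CD, and 521 and 411 CPM in R403Q-EMPA, so the groups did not overlap. The log2 fold change was 1.62 ± 0.35 (edgeR adjusted p = 0.0469). It stayed past the threshold in 6 of 14 alternatives, over which the log2 fold change ran from 1.43 to 1.93 and the adjusted p up to 0.335. Without the nuclei with Abcc9 and Kcnj8 UMI it was 1.49 (adjusted p = 0.239), and without the nucleus with the most Cnnm2 UMI in each library 1.93 (adjusted p = 0.106). Groups also did not overlap for 39.1% of all tested genes in this comparison, and for 33.3% in R403Q-CD against WT-CD and 34.5% in R403Q-EMPA against WT-CD.

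Adamts9, a secreted protease of proteoglycans, and Crispld2, a secreted protein gene, were higher with EMPA in both comparisons. Adamts9 had 5 and 18, 8 and 13, and 96 and 12 UMI in the WT-CD, R403Q-CD and R403Q-EMPA libraries, a log2 fold change of 2.34 ± 0.50 against R403Q-CD (edgeR adjusted p = 0.0469) and 2.59 ± 0.49 against WT-CD (adjusted p = 0.0241). Crispld2 had 12 and 15, 10 and 14, and 117 and 10 UMI, with 2.34 ± 0.51 (adjusted p = 0.0469) and 2.51 ± 0.50 (adjusted p = 0.0309). Without nuclei with 2 or more pericyte UMI Crispld2 changed sign, to -0.755 against R403Q-CD and -0.0669 against WT-CD. R403Q-EMPA replicate 1 held most UMI of both genes, and 79 of its 117 Crispld2 UMI came from 1 nucleus. Without that library the values were 1.04 (adjusted p = 0.79) and 1.30 (adjusted p = 0.703) for Adamts9 and 0.58 (adjusted p = 0.897) and 0.76 (adjusted p = 0.863) for Crispld2. Slit2, a guidance ligand called against WT-CD at 3.50 ± 0.69 (adjusted p = 0.028), had 38 UMI in that library, 35 of them in 1 nucleus. It stayed past the threshold in 8 of 11 alternatives and lost it in the others, with a log2 fold change from 2.60 to 5.33.

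**Figure D4:**
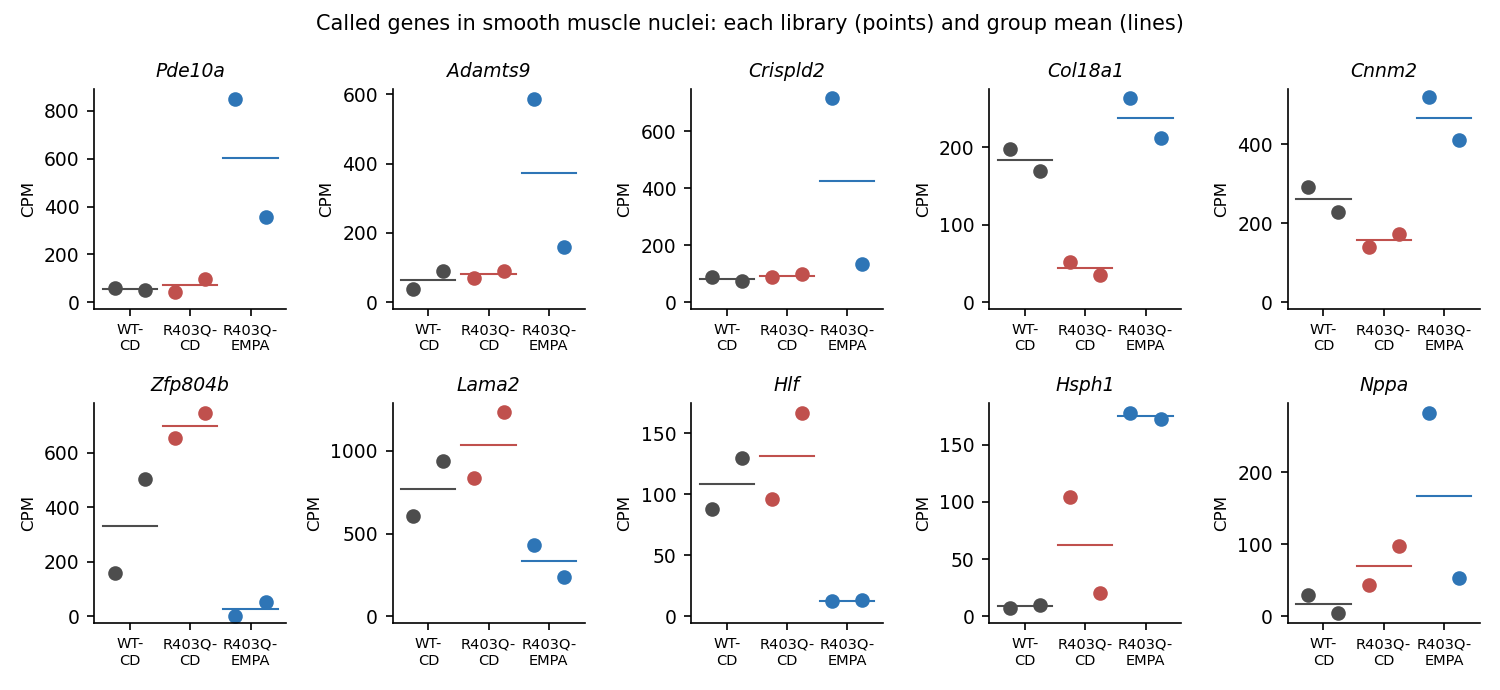
CPM (y axis, from 0) of 10 called genes in smooth muscle nuclei, with 1 point per library and lines at the group means (x axis, groups). Pde10a stands at 851 and 358 CPM in the R403Q-EMPA libraries against at most 97.3 CPM elsewhere, and Col18a1 is lowest in R403Q-CD at 52.3 and 34.8 CPM.

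The other genes called lower against R403Q-CD were Lama2 (a laminin chain, -1.54 ± 0.33), Gli3 (a Hedgehog transcription factor, -2.73 ± 0.57), Nostrin (a regulator of endothelial nitric oxide synthase traffic, -2.32 ± 0.49), Magi2 (a scaffold protein, -1.64 ± 0.36) and Hlf (a clock output factor, -3.28 ± 0.71), each at an edgeR adjusted p of 0.0469. Lama2 had 83 and 188, 96 and 178, and 70 and 18 UMI in the 3 groups, Gli3 10 and 20, 18 and 27, and 5 and 1. Both EMPA libraries were lowest for each in CPM. Nuclei with Abcc9 and Kcnj8 UMI, fewest in R403Q-EMPA replicate 2, gave 72.8% of the Lama2, 76.5% of the Gli3 and 80.7% of the Nostrin UMI. Cluster 3, which had the fewest nuclei in the EMPA libraries, gave 396 of 633 Lama2, 59 of 81 Gli3 and 108 of 150 Nostrin UMI. Without the nuclei with Abcc9 and Kcnj8 UMI Lama2 was at -0.82 (adjusted p = 0.984), and Gli3 and Nostrin fell below the filter on low counts. Abcc9 itself was at -1.52 ± 0.37 (adjusted p = 0.0958). Fibroblast markers, Pdgfra left out, were also lowest with EMPA, at 931 and 849 CPM against 1355 to 1714 CPM in the other libraries, and in all other nuclei at 3106 and 3791 CPM against 4717 to 7682 CPM. Their median over 6 tested genes was -0.70 against R403Q-CD and -0.93 against WT-CD, with 1 of 6 positive in each. Without the nuclei with Abcc9 and Kcnj8 UMI the EMPA sums of 784 and 722 CPM lay within the 506 to 1541 CPM of the others. The part of fibroblast transcripts in these changes was not tested. Each of the 5 calls stayed past the threshold in 7 of its 11 to 14 alternatives.

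Of 14 tested heat shock genes, 0 were called with EMPA against R403Q-CD and 1 against WT-CD, while 9 and 10 had an unadjusted p under 0.05, all higher. Of all tested genes 0.325% and 0.237% were called, and 8.58% and 6.92% had such a p. The median log2 fold change was 1.33 and 1.73, against -0.02 and -0.002 for all genes. In R403Q-CD against WT-CD 0 were called and 3 had an unadjusted p under 0.05, all higher, against 4.85% of all genes. The median there was 0.27. The list summed to 1211 and 718 CPM in WT-CD, 1499 and 994 CPM for R403Q-CD, and 2316 and 3130 CPM in R403Q-EMPA, the highest pair. In pericyte nuclei the sums were 961 and 736, 1164 and 1057, and 2730 and 2757 CPM. Hsph1, a cytosolic chaperone, was the called gene, with 1 and 2, 12 and 3, and 29 and 13 UMI and a log2 fold change of 4.18 ± 0.76 against WT-CD (edgeR adjusted p = 0.0175). This call held in 10 of 14 alternatives. The change was 3.60 in pericyte nuclei (adjusted p = 4.84e-07). Hspa8, a constitutive chaperone with the tenth smallest p, was at 1.86 ± 0.42 (adjusted p = 0.077).

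Of 9 tested clock genes, 1 was called lower with EMPA against R403Q-CD (Hlf) and 0 against WT-CD, and 5 had an unadjusted p under 0.05 in each comparison, all lower. Of all tested genes 0.325% and 0.237% were called, and 8.58% and 6.92% had such a p. The clock medians were -0.84 and -0.87, against -0.02 and -0.002 for all genes. Hlf had 12 and 26, 11 and 24, and 2 and 1 UMI, and Rora, an activator of Bmal1 transcription, was at 2516 and 4444, 3729 and 4378, and 1734 and 2056 CPM. Both EMPA libraries were lowest for both genes. The clock list summed to 2567 and 3090 CPM in R403Q-EMPA and 4267 to 6046 CPM in the other libraries, and in all other nuclei to 3232 and 3649 against 5164 to 6659 CPM. Without the nuclei with Abcc9 and Kcnj8 UMI the smooth muscle sums were 2301 and 2973 CPM against 3484 to 4375 CPM, again lowest in both EMPA libraries.

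Nppa, the atrial natriuretic peptide of cardiomyocytes, was called higher against WT-CD at 3.56 ± 0.76 (edgeR adjusted p = 0.0442). It had 4 and 1, 5 and 14, and 46 and 4 UMI, spread over 23 nuclei in R403Q-EMPA replicate 1, and the other EMPA library lay within the range of R403Q-CD. The change was 4.54 in pericyte nuclei (adjusted p = 0.00179) and 4.58 in all other nuclei (adjusted p = 0.0137). The cardiomyocyte marker sum of these smooth muscle nuclei, without the 3 genes that the rule limits, was 1561 and 878 CPM in WT-CD, 1682 and 2001 CPM for R403Q-CD, and 1727.5 and 1737.5 CPM in R403Q-EMPA. The part of free cardiomyocyte RNA in this change was not tested. Without R403Q-EMPA replicate 1 Nppa was at 1.76 (adjusted p = 0.847). Tmeff2, a transmembrane protein gene, was called against WT-CD at 2.25 ± 0.47 (adjusted p = 0.0419), with 312 and 252 CPM in R403Q-EMPA and 14.6 to 94.8 CPM in the others. It stayed past the threshold in 7 of 13 alternatives, with a log2 fold change from 1.62 to 4.21 and an adjusted p up to 0.426. Kcnip1, a potassium channel interacting protein gene, was at 2.82 ± 0.63 (adjusted p = 0.0685).

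Of the contractile list without the 3 rule genes, 26 genes were tested, and 0 were called in any of the 3 comparisons by edgeR. In R403Q-CD against WT-CD, 4 of the 26 had a positive log2 fold change, and the median was -0.21 against 0.01 for all genes. An unadjusted p under 0.05 was reached by 4 of the 26, all lower, and by 4.85% of all genes tested. The 4 were Smtn (smoothelin) at -1.19 ± 0.36 (edgeR adjusted p = 0.922), Ppp1r12a at -0.56 ± 0.23 (adjusted p = 0.958), and Actn1 and Synm, the last pair named after their values were seen. Smtn was at 416 and 364 CPM in WT-CD, 192 and 160 CPM for R403Q-CD, and 331 and 159 CPM in R403Q-EMPA. Both R403Q-CD libraries lay below both WT-CD libraries, and so did both EMPA libraries, of which 1 was above and 1 below both R403Q-CD libraries. Cluster 5 gave 101 of the 241 Smtn UMI. Myh11, which the rule used, was at 5550 and 4953, 3686 and 3704, and 3902 and 3780 CPM and gets no test. In R403Q-EMPA against R403Q-CD 21 of the 26 were positive, with a median of 0.28. Only Ppp1r12a had an unadjusted p under 0.05, against 8.58% of all genes tested. Against WT-CD the median was -0.07.

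Without the rule genes the contractile list summed to 22587 and 19871 CPM in WT-CD, 19116 and 16539 CPM for R403Q-CD, and 21887 and 18940 CPM in R403Q-EMPA. The R403Q-CD libraries were below WT-CD, while 1 EMPA library lay within the WT-CD range and the other within the R403Q-CD range. Without the nuclei with Abcc9 and Kcnj8 UMI the sums were 25308 and 26108, 21937 and 22012, and 24337 and 20390 CPM. R403Q-CD was again below WT-CD, and the EMPA libraries lay below WT-CD on either side of R403Q-CD.

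Other genes with small p in R403Q-CD against WT-CD, none past the adjusted threshold, included Ppm1l, a protein phosphatase, and Kcnma1. Ppm1l was at 569 and 683 CPM in WT-CD, 261 and 313 CPM for R403Q-CD, and 496 and 597 CPM in R403Q-EMPA, with R403Q-CD below all others (log2 fold change -1.15 ± 0.30, edgeR adjusted p = 0.686). Kcnma1 was at 846 and 673, 288 and 327, and 570 and 199 CPM (-1.33 ± 0.36, adjusted p = 0.686), with the EMPA libraries on either side of R403Q-CD. Cluster 5 gave 243 of the 439 Kcnma1 UMI. Grm7, a glutamate receptor, was at 1.50 ± 0.37 (adjusted p = 0.557), Gna14, a G protein alpha subunit, at 1.41 ± 0.41, Sorbs2os at -1.90 ± 0.55 and Flt1, an endothelial VEGF receptor with 28 UMI in 1 WT-CD nucleus, at -2.94 ± 0.83 (adjusted p = 0.839 for these 3). Efna5 was at -3.73 ± 0.92 (adjusted p = 0.557), from 18 and 19 UMI in WT-CD and 2 and 0 in R403Q-CD.

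Of 28 tested matrix genes, 2 were called with EMPA against R403Q-CD (7.14%, against 0.325% of all genes tested), Col18a1 higher and Lama2 lower, and the median was 0.42. Of 22 ion channel genes, 0 were called in any comparison. In the 3 comparisons in order, Kcnab1 was at -0.13, 0.34 and 0.21, Cacna1c at 0.04, -0.03 and 0.01 and Cacnb2 at 0.15, 0.07 and 0.22. Of 16 relaxation genes, 0 were called, with Prkg1 at 0.21, -0.13 and 0.08 and Pde3a at -0.14 ± 0.22, 0.76 ± 0.23 and 0.61 ± 0.22. Of 11 tested pericyte markers, 0 were called, but the median was 0.11 in R403Q-CD against WT-CD, -0.70 in R403Q-EMPA against R403Q-CD and -0.95 against WT-CD. Rgs5 was at -0.40 and Pdgfrb at -0.47 against R403Q-CD.

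**Figure D5:**
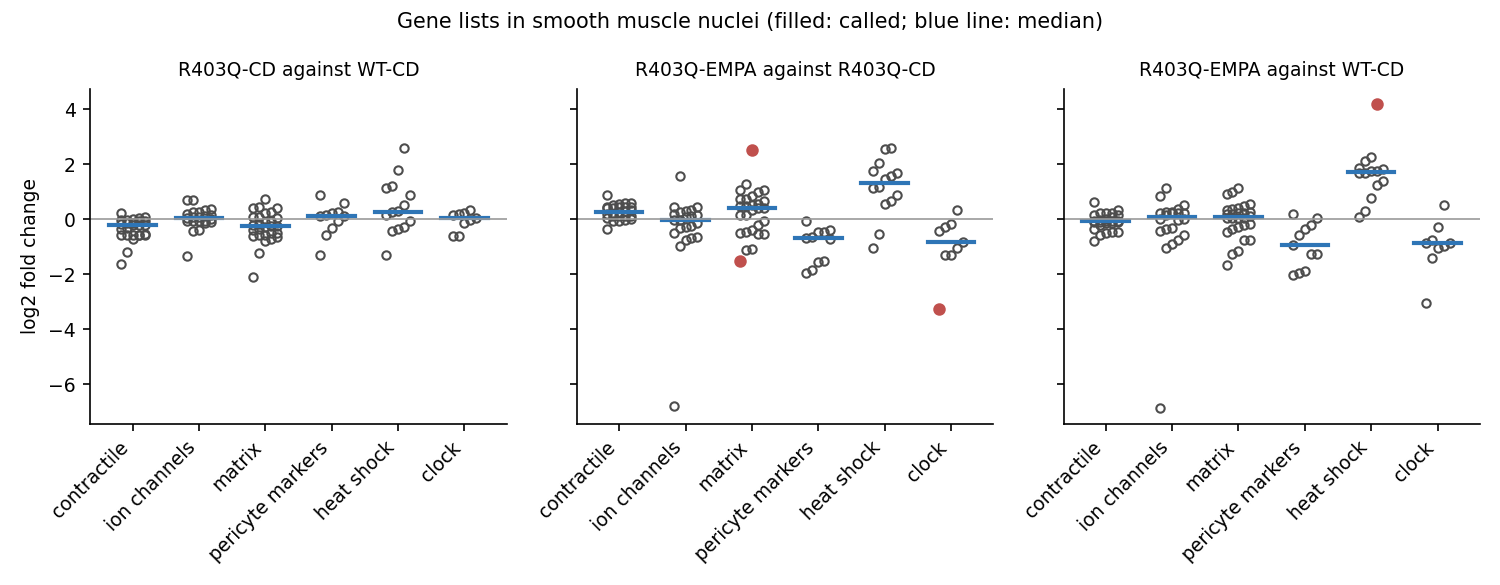
Log2 fold change (y axis) of each tested gene of 6 lists (x axis) in the 3 comparisons, with called genes filled and the median as a blue line. The heat shock medians are 1.33 and 1.73 and the clock medians -0.84 and -0.87 in the EMPA comparisons, while the contractile medians, without the rule genes, lie between -0.21 and 0.28.

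Whether changes differed from those of pericyte nuclei or of all other nuclei was tested by an interaction term with the library as a block, over the same 3381 genes. From pericyte nuclei 1 gene differed in R403Q-CD against WT-CD (0.0296%), 1 in R403Q-EMPA against R403Q-CD (0.0296%) and 4 in R403Q-EMPA against WT-CD (0.118%). From all other nuclei the numbers were 1 (0.0296%), 6 (0.177%) and 17 (0.503%). Pde10a differed from all other nuclei in both EMPA comparisons, by 2.94 ± 0.46 (edgeR adjusted p = 0.0165) and 3.85 ± 0.46 (adjusted p = 0.000399), but by 1.72 from pericyte nuclei against R403Q-CD (adjusted p = 0.158). Sorbs2, an actin-binding adaptor, stood 1.87 lower relative to pericyte nuclei against WT-CD (-1.87 ± 0.26, adjusted p = 0.00339). Its change was -0.33 in smooth muscle, at 3968 and 3018 CPM in WT-CD and 3032 and 2507 CPM in R403Q-EMPA, and 1.58 in pericyte nuclei (adjusted p = 0.0185). Kcnab1 differed from all other nuclei by 1.29 ± 0.25 (adjusted p = 0.0383) against R403Q-CD, its change in smooth muscle being 0.34.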

How the data were processed

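Single-nucleus RNA was measured in 6 left-ventricle libraries, with nuclei isolated from 50 mg of frozen tissue. The authors deposited UMI counts per gene and nucleus, made with Cell Ranger 8.0.1 on build GRCm39 per the submitters' processing notes. The 6 libraries held 31787308 to 45397128 UMI. Scrublet (in scanpy 1.11.5, Python 3.11.15) marked doublets, which stayed in. Counts were summed over the smooth muscle nuclei of each library (75395 to 200497 UMI). Genes kept by filterByExpr were tested with edgeR 4.0.16 (R 4.3.3, TMM, quasi-likelihood, 1 fit over 6 libraries, Benjamini-Hochberg over 3381 genes), and errors of fold changes are standard errors. CPM used each set's total UMI. Clusters came from 1000 variable genes, 10 principal components and Leiden clustering at resolution 0.5. The script was tested on simulated data.

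The nuclei and the gene lists were chosen with earlier results of these data known. Genes were named when called, when among the 10 smallest p where fewer than 10 were called, when among the 5 most extreme per direction in the interaction tests, the 4 with the highest mean CPM of a list, the 15 highest and 15 lowest beside pericyte nuclei, or a cell type marker. Alternatives were DESeq2 1.42.0, no filter on low counts, each library left out, no mitochondrial filter, a threshold of 5 marker UMI, and leaving out doublets or nuclei with 2 or more pericyte UMI. Leaving out nuclei with 2 or more UMI of Abcc9 and Kcnj8, or the nucleus with the most UMI of each gene, was chosen after seeing the data.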

Additional observations from a re-analysis of the deposited data

Results flagged for a closer look

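The results here are genes whose change differed between smooth muscle nuclei and other nuclei of the same libraries, by the edgeR interaction test with Benjamini-Hochberg adjustment. Each value is the log2 change in smooth muscle nuclei minus that in the other set. All other nuclei are a mix of cell types whose marker sums differed by group. The part of that mix in the differences was not tested. No group had enough libraries for a test of single outlying libraries.

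Against pericyte nuclei, Tenm3 differed by 5.60 (adjusted p = 0.0339) in R403Q-CD against WT-CD, from 14 and 12 UMI in 2 nuclei of each R403Q-CD library. In R403Q-EMPA against R403Q-CD, Zfp804b differed by -4.62 (adjusted p = 0.00935). In R403Q-EMPA against WT-CD the differences were 3.60 for Kcnip1 (adjusted p = 0.0384), -6.67 for Csmd1 (adjusted p = 0.0212), -1.87 for Sorbs2 (adjusted p = 0.00339) and -1.87 for Trabd2b (adjusted p = 0.0384). In R403Q-EMPA replicate 1, 28 of 39 Kcnip1 UMI came from 1 nucleus.

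Against all other nuclei, Tenm3 differed by 5.26 (adjusted p = 0.0342) in R403Q-CD against WT-CD. In R403Q-EMPA against R403Q-CD the differences were 1.29 for Kcnab1 (adjusted p = 0.0383), 2.94 for Pde10a (adjusted p = 0.0165), 2.48 for Adamts9, 3.52 for Nav2, 3.69 for Kcnip1 and -4.09 for Zfp804b (adjusted p = 0.0369 for these 4). In R403Q-EMPA against WT-CD 17 genes differed, 13 higher and 4 lower. Only those most extreme in each direction are given, 2.50 for Nav2 (adjusted p = 0.0374), 3.35 for Crispld2 (adjusted p = 0.0101), 3.85 for Pde10a (adjusted p = 0.000399), 4.51 for Slit2 (adjusted p = 0.00221), 5.13 for Kcnip1 and -1.80 for Sorbs2 (adjusted p = 0.00193 for both), -2.48 for Kcnma1 (adjusted p = 0.00446) and -1.14 for Dmd (adjusted p = 0.0329). Kcnq5 was at -14.5 (adjusted p = 0.0366), a fitted value that depends on the prior count and is no bound, since both R403Q-EMPA libraries had 0 UMI.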

How the results depend on the processing

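No paired analysis was possible because the replicate numbers follow the order of deposition and pair no libraries. The number of genes called in R403Q-EMPA against R403Q-CD and against WT-CD was 11 and 8. It was 1 and 1 with DESeq2, 40 and 36 with no filter on low counts, 6 and 3 in nuclei with 5 or more marker UMI, 0 and 0 without nuclei with 2 or more pericyte UMI, 0 and 1 without nuclei with 2 or more UMI of Abcc9 and Kcnj8, and 2 and 1 without the nucleus with the most UMI of each gene. With no mitochondrial filter it was 15 and 20. For R403Q-CD against WT-CD it was 0, but 4 with no filter on low counts and 2 with 5 or more marker UMI. Leaving out 1 library in turn gave 0 to 6 for R403Q-CD against WT-CD, 12 to 55 for R403Q-EMPA against R403Q-CD and 7 to 53 for R403Q-EMPA against WT-CD; the lone library of a group was then assumed to vary like the others.

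For differences from pericyte nuclei, no filter gave 8, 22 and 20 genes in the 3 comparisons in order, and leaving out 1 library 0 to 8, 4 to 30 and 3 to 18. For differences from all other nuclei, no filter gave 10, 18 and 40, and leaving out 1 library 1 to 12, 3 to 36 and 8 to 47. The share of smooth muscle nuclei in R403Q-EMPA minus R403Q-CD changed sign with no mitochondrial filter (-0.0187 points) and between -0.0528 and 0.0664 points when 1 library was left out. Crispld2 changed sign without nuclei with pericyte UMI, to -0.755 against R403Q-CD and -0.0669 against WT-CD. The causes were not tested. Of 19 called gene results, 19 held without doublets, 8 of 19 without R403Q-EMPA replicate 1, 12 of 19 without R403Q-CD replicate 2 and 2 of 19 with DESeq2. Pde10a against WT-CD held in 13 of 13 alternatives that could test it, and without nuclei with pericyte UMI it was below the filter on low counts. Single values rest on 28 to 51 nuclei per library, so low genes are limited by depth.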
